A study of Mus musculus with 12 samples.

Results

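Chemokines and their receptors were followed in mouse inguinal white adipose tissue, a subcutaneous depot of the groin. The family was taken as every row of the deposited gene table whose symbol begins with Ccl, Cxcl, Ccr or Cxcr and a digit, together with Xcl1, Xcr1, Cx3cl1, Cx3cr1 and Ackr1 to Ackr4. That rule found 62 of 24344 rows, of which 39 encode ligands and 23 encode receptors. It uses gene names and no measured value.

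Total RNA was sequenced from 12 C57BL/6J mice, labelled as 10 weeks of age, in 4 groups of 3. All mice had been housed at room temperature (4 weeks) and then near thermoneutrality at 30 °C (6 weeks), followed by 3 days at 30 °C or at 8 °C. The groups are WT_30C and WT_8C, labelled as wild type and named in the series title by a floxed Ern1 line (Ern1f/f), and AKO_30C and AKO_8C, whose genotype label is IRE1(alpha)-/- and whose title is Ern1f/f AKO. The labels used here name neither a Cre driver nor the cells in which the deletion should occur. Ern1, which encodes IRE1alpha, averaged 2.94 FPKM in WT_30C and 4.06 in AKO_30C (adjusted p = 0.193, limma), and 4.96 in WT_8C and 7.04 in AKO_8C (adjusted p = 0.0756). The targeted gene did not read lower in libraries labelled AKO, a gene-level value cannot show the loss of some exons, and each genotype difference below takes its direction from the labels alone.

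Chemokines are small secreted proteins that guide leukocytes by binding receptors coupled to inhibitory G proteins. Homeostatic ligands such as Ccl19, Ccl21 and Cxcl13 place lymphocytes and dendritic cells in lymphoid organs, and inflammatory ligands such as Ccl2 and Cxcl1 draw monocytes and neutrophils into tissue. Atypical receptors bind chemokines without the usual G protein signal and remove or transport them. The mouse inguinal fat pad holds the inguinal lymph node, so its bulk RNA can contain both fat and lymph node transcripts.

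Values are FPKM, which corrects fragments for transcript length and for the size of the library, so that levels can be set side by side between genes. Summed FPKM per library lay between 594202 and 743185, and 12433 to 12818 genes reached 1 FPKM; the depth in reads is unknown. A gene was tested when it reached 1 FPKM in at least 3 libraries, which 47 of the 62 members did. Differences are log2 differences of FPKM plus 1, which understate the change of genes near 1 FPKM. Adipocyte markers summed to between 30222 and 69344 FPKM in each library, T cell markers to between 248 and 1119, and skeletal muscle markers to between 278 and 6379. Single libraries stood apart for some members on the scale of FPKM plus 1. WT_8C replicate 2 was the highest of its group for 26 of the 47 members tested and lay over 2-fold above both other libraries for 8 of them, and AKO_8C replicate 2 was the lowest of its group for 21 and lay over 2-fold below both others for 5. Results that rest on WT_8C replicate 2 are given with and without it, as are the values of Ccl2, Ccl7, Cxcl1 and Cxcl2 for AKO_8C replicate 2.

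The neutrophil-attracting ligands Cxcl1, Cxcl2 and Cxcl3 lie together on chromosome 5, in a group of 5 genes between 90759360 and 90905938 (GRCm38). Their sequences are shown because Cxcl1 and Cxcl2 were called higher in the cold in the libraries labelled AKO, and because all 3 carry the same letters close to their start. Neither Cxcl1 nor Cxcl2 was called in WT, but their responses were not shown to differ between the genotypes. The stretches run from 150 to 29 bases before the RefSeq gene start (GRCm38.p6, plus strand), at chr5:90891095-90891216 for Cxcl1, chr5:90903749-90903870 for Cxcl2 and chr5:90785951-90786072 for Cxcl3, and capitals mark matches to the NF-κB type motif GGGNNTTTCC on either strand.
Cxcl1: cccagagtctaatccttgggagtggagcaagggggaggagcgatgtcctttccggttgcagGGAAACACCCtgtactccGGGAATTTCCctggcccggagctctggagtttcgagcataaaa
Cxcl2: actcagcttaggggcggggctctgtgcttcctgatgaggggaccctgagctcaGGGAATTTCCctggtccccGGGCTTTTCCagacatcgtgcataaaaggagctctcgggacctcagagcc
Cxcl3: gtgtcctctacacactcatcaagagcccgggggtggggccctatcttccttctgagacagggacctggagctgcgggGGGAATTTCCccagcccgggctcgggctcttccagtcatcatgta
In the 250 bases before the start, this motif was found in 464 of 32851 RefSeq promoters (1.41%) and in 6 of the 46 members that had a promoter sequence there, namely Cxcl1, Cxcl2, Cxcl3, Ccl20, Ccl9 and Ccr3. Also searched were an IRF type motif (TTTCNNTTTC), in 2.98% of promoters and 3 of the 46 members, and an AP-1 type motif (TGANTCA), in 6.75% and 6. These members had 53 promoters there, so counts of promoters and of members are not in the same unit. A match describes the letters of these windows and is not a measured binding site.

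The most abundant members over the 12 libraries were homeostatic or lymphocyte ligands. Ccl21a, a ligand of Ccr7 made by lymphatic vessels and lymph node stroma, averaged 342 FPKM, and Ccl5, a CC ligand made by T cells, averaged 341 FPKM. They were followed by Ccl19, the other ligand of Ccr7, at 184 FPKM, by Cxcl13, which attracts B cells through Cxcr5, at 79.4 FPKM, and by Cxcl12, the ligand of Cxcr4, at 73.9 FPKM. The highest receptors over all libraries were Cxcr4 at 67.3 FPKM and Ccr7 at 63.0 FPKM. These means pool groups whose order differs. Ccl5 led in WT_30C with a group mean of 605 FPKM, above Ccl21a at 465 FPKM, whereas in WT_8C it was at 169.7 FPKM and Ccl21a at 282 FPKM. Ccl8, at 129.96 FPKM in WT_8C, and Ccl6, at 81.5 FPKM in AKO_8C, exceeded the group means of Cxcl12 and Cxcl13 there. In AKO_8C the highest receptor was the atypical receptor Ackr3 at 63.1 FPKM, above Ccr7 at 41.3 and Cxcr4 at 35.0 FPKM. Ccl21b, Ccl21c, Ccl26, Ccl27b and Ccr1l1 were listed at 0 in all 12 libraries. Ccl21b differs from Ccl21a by 2 of 402 transcript bases and Ccl27b from Ccl27a by 3 of 425 bases, so how reads were divided between such copies is uncertain. The other 10 members that were not tested, from Ccl3 to Cxcl5, did not exceed 1.58 FPKM in any library.

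Cold exposure, in the comparison that asks what 3 days at 8 °C changed, was accompanied by lower levels of receptors and ligands of lymphocytes in both genotypes. In WT, 22 of 47 members were called (46.8%), 7 higher and 15 lower, where 49.0% of all genes tested were called, so the share called was near the background. In the libraries labelled AKO, 24 were called (51.1%), 7 higher and 17 lower, against 49.5% of all genes. Members called lower made up 31.9% in WT, where 24.7% of all genes were called lower, and 36.2% in AKO, where the figure was 23.1%. The median difference of the members was -0.03 in WT and -0.07 in AKO, beside -0.01 and 0 over all genes tested. Of the members called, 12 were lower in both genotypes, 2 were higher in both and 1, Cxcl12, was called in opposite directions, so that the calls in the same direction in both are 63.6% of those in WT and 58.3% of those in AKO (73.0% and 72.2% over all genes).

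**Figure D1:**
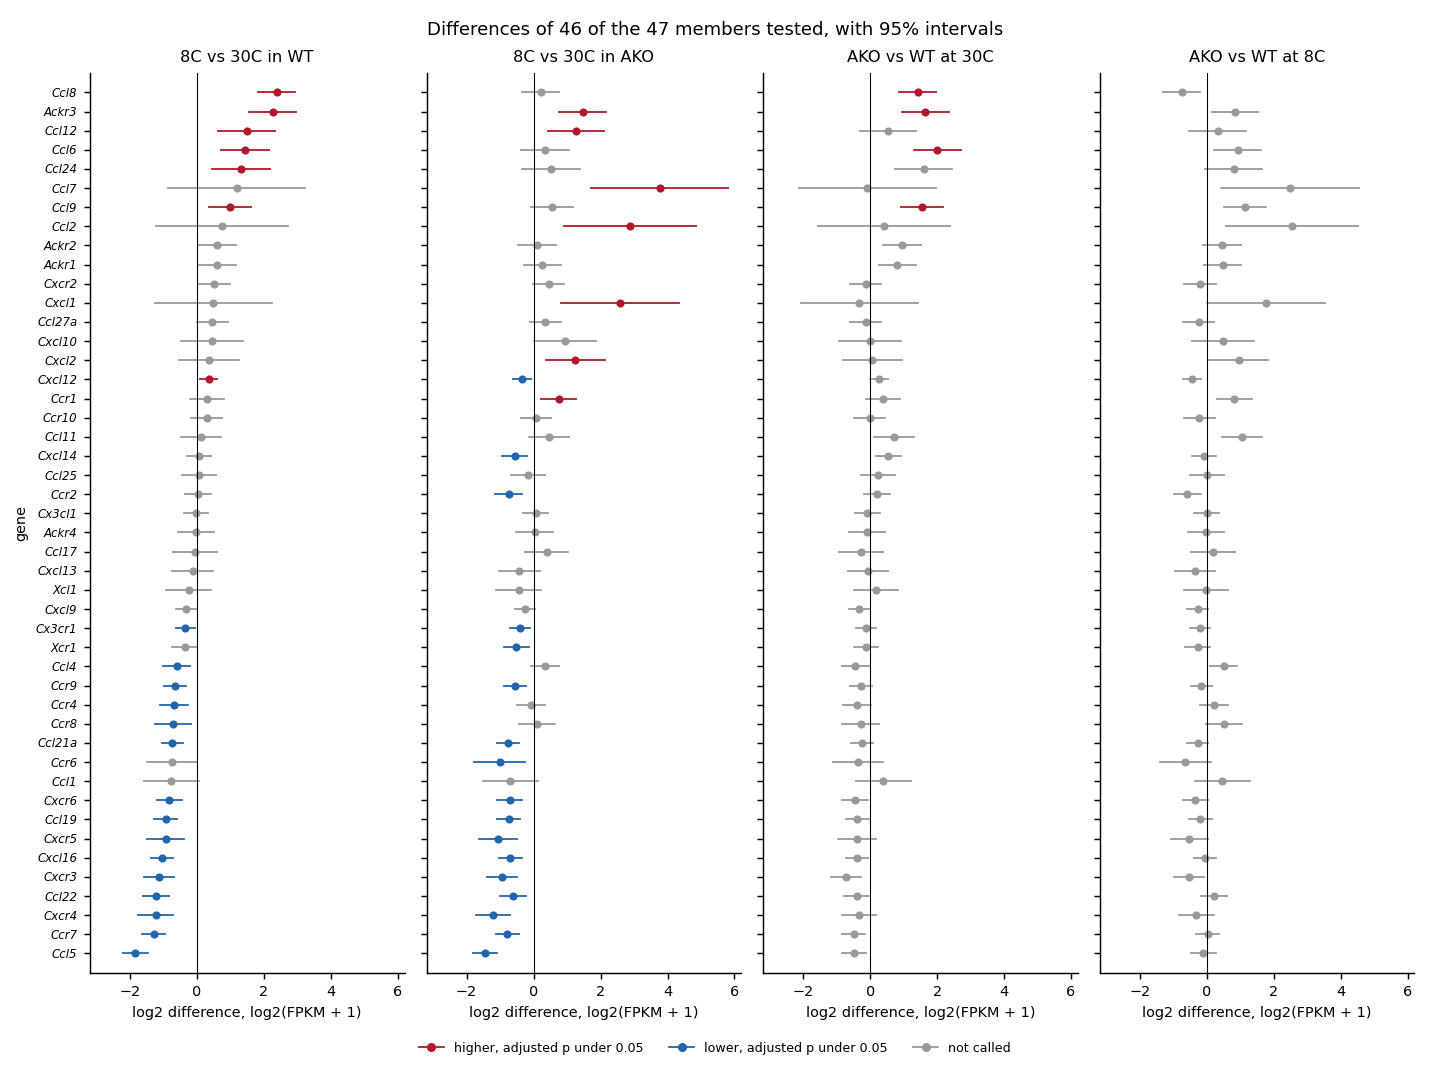
Log2 differences of 46 of the 47 members tested in 4 comparisons, ordered by the difference between 8 °C and 30 °C in WT; points are estimates from limma, lines are 95% intervals, and colour marks an adjusted p under 0.05. Ccl5, Ccr7 and Cxcr4 lie lowest in WT and are lower in AKO too, Ccl7 and Ccl2 have the widest intervals, and only 4 members are called between the genotypes at 30 °C and none at 8 °C.

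Among the 11 homeostatic ligands tested, 4 were lower and 1 higher at 8 °C in WT, and 6 were lower in AKO. That is 45.5% called in WT and 54.5% in AKO, near the 49.0% and 49.5% over all genes. Those called lower were 36.4% in WT and 54.5% in AKO, beside 24.7% and 23.1% of all genes. Ccl19 was at 298, 222 and 284 FPKM in WT_30C, at 220.1, 209 and 183 in AKO_30C, at 115, 151 and 155 in WT_8C and at 99.5, 136 and 131 in AKO_8C. Ccl21a was at 481, 416 and 497 FPKM in WT_30C, at 420.0, 399 and 353 in AKO_30C, at 214, 310.2 and 322 in WT_8C and at 249.9, 216 and 224 in AKO_8C. For both Ccr7 ligands every library at 8 °C lay below every library of the same genotype at 30 °C. Ccl19 fell by 0.93 on the log2 scale in WT (SE 0.16, adjusted p = 0.000563, limma) and in AKO fell by 0.74 (adjusted p = 0.00221). Ccl21a fell by 0.74 in WT (SE 0.15, adjusted p = 0.00159) and in AKO fell by 0.76 (adjusted p = 0.00114). Both genes overlap 4930578G10Rik on the opposite strand, and whether the counting used strand is not given in the sources used here. The same limit holds for Cxcl16, Cxcr5, Cxcr6, Ccr9 and Cx3cr1, described below, which also overlap protein-coding genes of the opposite strand.

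Ccl22, a ligand of Ccr4 made by dendritic cells, fell by 1.23 in WT and by 0.63 in AKO, and Cxcl16, the ligand of Cxcr6, fell by 1.04 and 0.69 (adjusted p = 0.0123 or less in each, limma). Without AKO_30C replicate 1 the fall of Ccl22 in AKO was no longer called (adjusted p = 0.0509). Cxcl14, an epithelial and stromal ligand, fell by 0.57 in AKO (adjusted p = 0.0148) and was not called in WT, where the difference was 0.05; the call was lost without AKO_30C replicate 1 (0.43 lower, adjusted p = 0.0644) or AKO_8C replicate 3 (adjusted p = 0.0595) and with no filter on low values (adjusted p = 0.0504). The difference between those cold responses had an adjusted p of 0.268. Cxcl13, the B cell ligand, was called in neither genotype: it lay between 74.7 and 100.5 FPKM in WT_30C and between 74.5 and 86.3 in WT_8C, which overlap, and at 103, 35.5 and 63.3 FPKM in AKO_8C. The difference in AKO was -0.42, and it was -0.79 and called without AKO_8C replicate 1 (adjusted p = 0.0102) and -0.04 without AKO_8C replicate 2 (adjusted p = 0.895).

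Cxcl12, a stromal ligand that retains leukocytes and progenitor cells through Cxcr4, moved in opposite directions. Its levels were 63.5, 59.5 and 79.2 FPKM in WT_30C, 79.3, 76.1 and 84.5 in AKO_30C, 79.22, 89.4 and 87.3 in WT_8C and 53.8, 66.2 and 68.6 in AKO_8C. The WT libraries at 8 °C lay above those at 30 °C by a narrow margin at their nearest values, and the libraries labelled AKO at 8 °C lay below those at 30 °C. Cxcl12 rose by 0.34 in WT (SE 0.12, adjusted p = 0.0338) and fell by 0.35 in AKO (SE 0.12, adjusted p = 0.0314, limma), but the test of the difference between the responses gave -0.69 (SE 0.17, adjusted p = 0.146). The WT call was lost when WT_30C replicate 1 or 2 or WT_8C replicate 2 or 3 was left out (log2 between 0.26 and 0.33, adjusted p between 0.0858 and 0.117), and the AKO call without AKO_30C replicate 1 or 3 or AKO_8C replicate 1 (-0.35, -0.31 and -0.24; adjusted p between 0.0607 and 0.130). Both calls were lost with no filter on low values (adjusted p = 0.0723 and 0.0680), and the WT call also when libraries were scaled to an equal sum (0.20, adjusted p = 0.191) or the WT groups were fitted alone (adjusted p = 0.0545).

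Of 16 conventional receptors tested, 9 were lower at 8 °C in WT and none was higher, and 10 were lower and 1 higher in AKO. The share called lower was 56.2% in WT and 62.5% in AKO, beside 24.7% and 23.1% of all genes. Ccr7, which brings T cells and dendritic cells into lymph nodes, was at 104, 92.3 and 103 FPKM in WT_30C, at 69.7, 77.3 and 65.4 in AKO_30C, at 35.2, 47.9 and 38.0 in WT_8C and at 33.6, 37.7 and 52.7 in AKO_8C. All libraries at 8 °C lay below all libraries at 30 °C. It fell by 1.29 in WT (SE 0.16, adjusted p = 5.7e-05, limma), in AKO it fell by 0.78 (adjusted p = 0.00145), and the difference between these falls was 0.51 (adjusted p = 0.314).

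Cxcr4, the widely expressed receptor of Cxcl12, was at 111, 70.6 and 141 FPKM in WT_30C, at 82.7, 85.0 and 77.97 in AKO_30C, at 40.6, 59.99 and 33.4 in WT_8C and at 39.0, 36.5 and 29.5 in AKO_8C. Cxcr5, the receptor of B cells for Cxcl13, was at 38.8, 29.7 and 40.4 FPKM in WT_30C, at 22.1, 34.3 and 25.9 in AKO_30C, at 14.8, 22.3 and 18.5 in WT_8C and at 20.1, 9.43 and 9.93 in AKO_8C. In neither gene did the temperatures overlap within a genotype, although the gap between WT_30C and WT_8C was set by single libraries. Cxcr4 fell by 1.24 in WT and 1.21 in AKO (adjusted p = 0.00128 and 0.00129), and Cxcr5 fell by 0.94 and 1.06 (adjusted p = 0.00987 and 0.00473, limma).

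The other receptors called lower in both genotypes were Cxcr3, a receptor of activated T cells, by 1.14 and 0.94, Cxcr6, a receptor of memory T cells and other lymphocytes, by 0.83 and 0.72, Ccr9, a gut-homing receptor, by 0.66 and 0.55, and Cx3cr1, the fractalkine receptor of monocytes and macrophages, by 0.35 and 0.41. Each of these except Cx3cr1 kept its call in all 12 fits that left out 1 library. Cx3cr1 kept its call in WT in only 2 of those 12 fits (adjusted p up to 0.160, without WT_30C replicate 3), and in AKO it lost the call without AKO_30C replicate 1 or 2 or AKO_8C replicate 1 or 2 (adjusted p between 0.0567 and 0.0744). Its call in WT was also lost with no filter on low values, a pseudocount of 0.1, median ratio scaling or the WT groups fitted alone (adjusted p between 0.0502 and 0.0970).

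Ccr4 and Ccr8, receptors of regulatory and other helper T cells, were called lower in WT alone, by 0.67 and 0.71, with differences of -0.07 and 0.09 in AKO. The difference between the genotypes' responses had an adjusted p of 0.324 for Ccr4 and 0.314 for Ccr8. Ccr4 lost its call without WT_30C replicate 1 (adjusted p = 0.0560) or WT_8C replicate 2 (adjusted p = 0.0513), and Ccr8 without WT_30C replicate 1 or 3 or WT_8C replicate 2 or 3 (adjusted p between 0.0558 and 0.119) and with no filter on low values (adjusted p = 0.0983). Ccr2, the receptor of inflammatory monocytes for Ccl2, was called lower in AKO alone, with 4.74, 3.52 and 6.02 FPKM in AKO_30C and 1.86, 2.90 and 2.44 in AKO_8C. It fell by 0.75 there (SE 0.18, adjusted p = 0.00501) and differed by 0.03 in WT, and the difference between the responses was -0.78 (adjusted p = 0.219, limma). Ccr6, a receptor of B cells and some T cells, fell by 1.02 in AKO (adjusted p = 0.0276) and Xcr1, the receptor of cross-presenting dendritic cells, by 0.52 (adjusted p = 0.0240). Ccr6 lost its call without AKO_30C replicate 2 or 3 or AKO_8C replicate 2 or 3 (-0.91, -0.94, -0.65 and -1.02, adjusted p between 0.0613 and 0.116) and with no filter on low values (adjusted p = 0.103), and Xcr1 without AKO_30C replicate 3 or AKO_8C replicate 2 or 3 (adjusted p between 0.0632 and 0.0897). In WT both also lay lower, Ccr6 by 0.75 and Xcr1 by 0.37, without a call (adjusted p = 0.0899 for each, limma). Ccr6 was called lower in WT without WT_8C replicate 2 (adjusted p = 0.0422) or AKO_8C replicate 2 (adjusted p = 0.0477). Xcr1 was called lower in WT without WT_30C replicate 2 (adjusted p = 0.0410). The difference between the responses was -0.27 for Ccr6 and -0.15 for Xcr1 (adjusted p = 0.826 and 0.803, limma).

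Ccl5, the T cell ligand, had the largest fall of any member on the log2 scale of FPKM plus 1 in both genotypes. As a share of the mean at 30 °C, Ccl1, a ligand of Ccr8 that did not exceed 2.84 FPKM, lay lower in WT, at 14.7% against 28.1% for Ccl5. Ccl5 was at 664, 552 and 598 FPKM in WT_30C, at 463, 426 and 408 in AKO_30C, at 142, 206 and 161 in WT_8C and at 120.2, 173 and 184 in AKO_8C. The highest library at 8 °C, at 206 FPKM, lay well below the lowest at 30 °C, at 408 FPKM. It fell by 1.84 in WT (SE 0.17, adjusted p = 8.23e-06), and in AKO it fell by 1.46 (SE 0.17, adjusted p = 2.31e-05, limma). Ccl4, an inflammatory CC ligand, fell by 0.61 in WT (adjusted p = 0.0186) at levels between 0.62 and 2.21 FPKM, and the call was lost without WT_30C replicate 3 or WT_8C replicate 2 or 3 (adjusted p between 0.0544 and 0.0791). In AKO it differed by 0.33 in the other direction (adjusted p = 0.160, limma), and was called higher without AKO_30C replicate 3 (0.55, adjusted p = 0.0206). The difference between these responses was called in 0 of 12 fits that left out 1 library.

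Markers of lymphocytes also fell in the cold, and those of other cell types varied. All 13 T cell markers tested were lower at 8 °C in both genotypes, and their summed level ran from 802 to 1119 FPKM in WT_30C, from 642 to 741 in AKO_30C, from 342 to 408 in WT_8C and from 248 to 324 in AKO_8C. Of 12 B cell markers, 11 were lower in WT and 12 in AKO, and the sum ran from 1290.1 to 1728 FPKM in WT_30C and from 360.5 to 878 in the libraries at 8 °C. None of the T or B cell markers in the table was at 0 in all libraries. The group mean at 8 °C, as a percentage of that at 30 °C, was 38.7% in WT and 42.2% in AKO for the T cell sum, 28.1% and 36.8% for Ccl5, 40.5% and 58.4% for Ccr7, 52.4% and 60.0% for Ccl19, and 60.7% and 58.8% for Ccl21a. For the B cell sum it was 49.7% and 42.6%, and for Cxcr5 51.1% and 48.0%, whereas for Cxcl13 it was 90.7% and 80.8%, the latter over the 3 unequal AKO_8C libraries described above. Of 8 dendritic cell markers, 4 were called lower in WT, and 7 lower and 1 higher in AKO, and their sum was at 63.0% and 46.1%. That sum was mostly H2-Ab1, at 1004 of a mean of 1060 FPKM in WT_30C. Of 8 skeletal muscle markers, 7 were called lower in WT and 8 in AKO, with the sum at 25.5% and 14.2%. The sum of 7 markers of lymph node stroma and high endothelial venules was at 93.6% in WT and 68.3% in AKO. In WT 6 of these 7 lay lower, with 1 called, and Ltbr was called higher, from 24.4 to 41.3 FPKM. In AKO 3 were called lower and 1 higher. The adipocyte sum was at 172% and 149%, and its largest part was Fabp4, at 18193 FPKM in AKO_30C and 38631 in AKO_8C. Of 10 adipocyte markers, 7 were called higher and none lower in WT, and 4 higher and 2 lower in AKO. The part of these markers in the fall of the members was not tested, and in bulk tissue fewer cells of a type and less RNA per cell cannot be told apart.

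**Figure D2:**
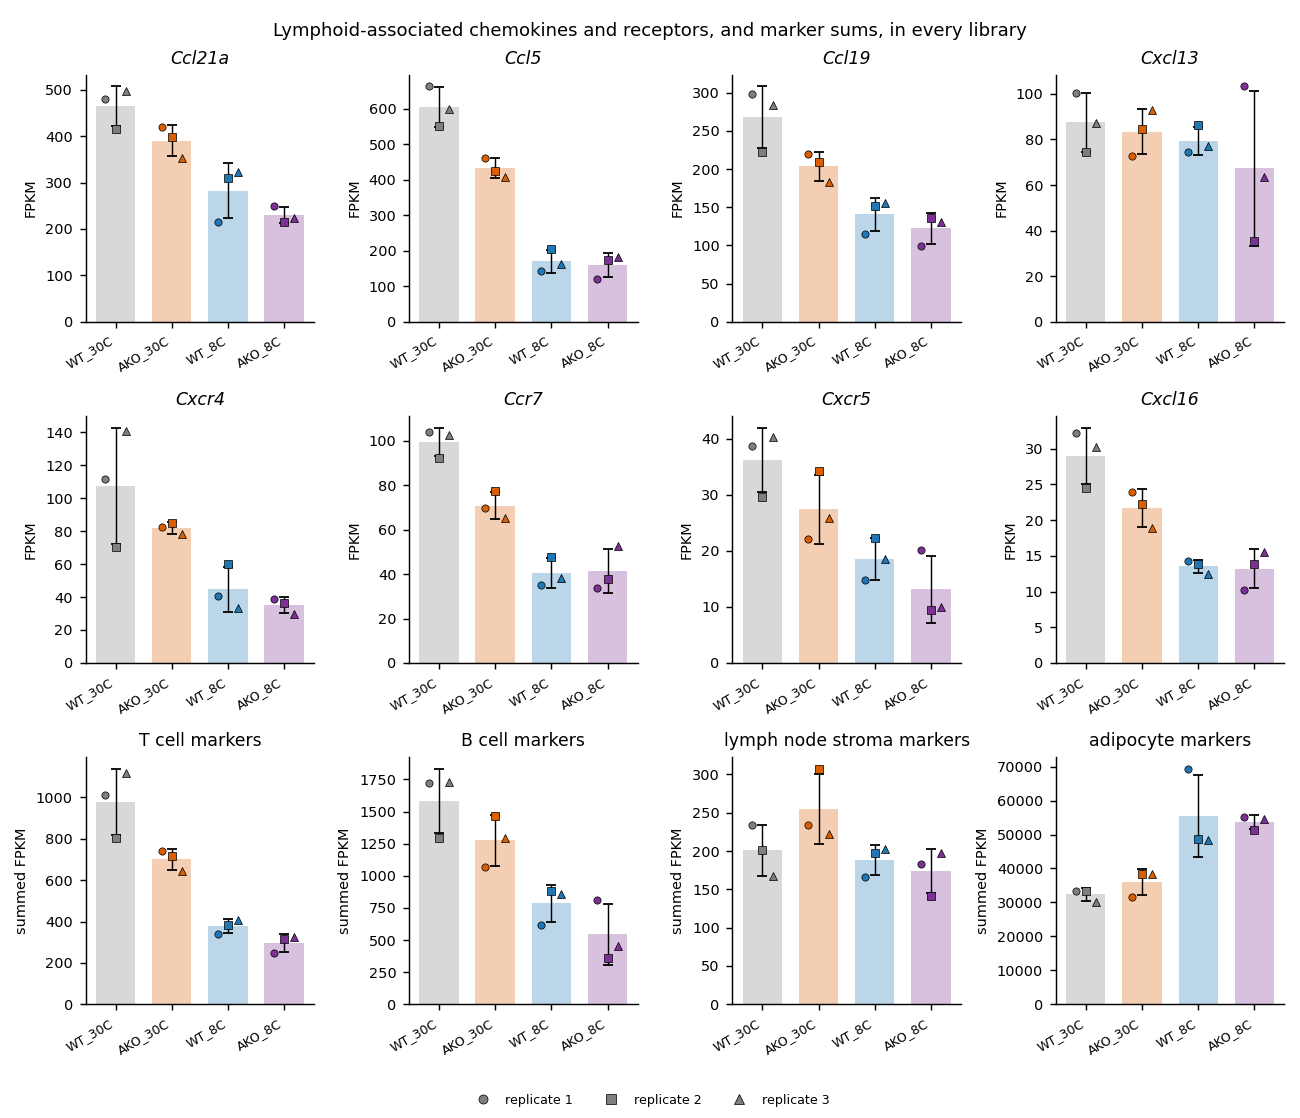
Levels in FPKM of 8 lymphoid-associated members and summed FPKM of 4 marker lists in every library; bars are group means, error bars are SD (n = 3) and symbols are replicates. Ccl5, Ccr7 and the T cell sum are lower in every library at 8 °C than in any at 30 °C, whereas Cxcl13 overlaps between all groups and the adipocyte sum is higher at 8 °C.

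**Figure D3:**
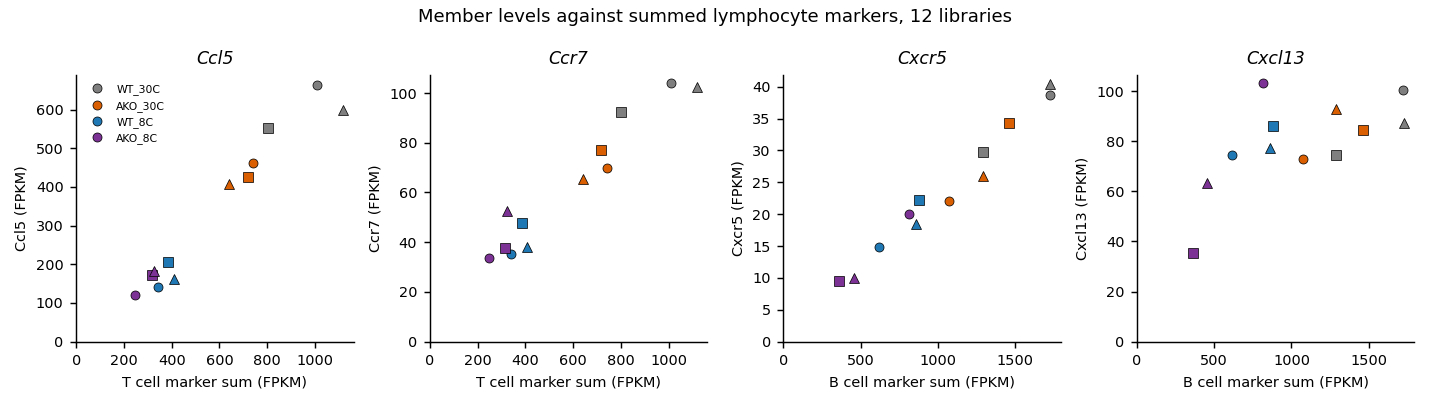
Levels of Ccl5 and Ccr7 against the summed T cell markers, and of Cxcr5 and Cxcl13 against the summed B cell markers, in FPKM, with 1 point per library, colour for the group and shape for the replicate. Libraries with a higher marker sum have higher Ccl5, Ccr7 and Cxcr5 on the whole, while Cxcl13 lies between 63.3 and 103 FPKM in 11 of the libraries and at 35.5 FPKM in AKO_8C replicate 2; the points are libraries of 4 groups and no correlation was tested.

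The monocyte ligands Ccl2 and Ccl7, both ligands of Ccr2, and the neutrophil ligands Cxcl1 and Cxcl2, both ligands of Cxcr2, were called higher at 8 °C in the libraries labelled AKO. Ccl2 was at 1.96, 1.83 and 5.74 FPKM in WT_30C, at 3.67, 3.44 and 5.44 in AKO_30C, at 0.77, 35.8 and 2.99 in WT_8C and at 81.3, 13.2 and 43.6 in AKO_8C. Ccl7 was at 3.60, 2.86 and 3.07 FPKM in WT_30C, at 2.90, 1.29 and 5.76 in AKO_30C, at 3.20, 63.1 and 2.18 in WT_8C and at 113, 19.6 and 62.5 in AKO_8C. Cxcl1 was at 1.48, 1.13 and 1.18 FPKM in WT_30C, at 0.37, 0.57 and 1.74 in AKO_30C, at 0.26, 16.8 and 0.43 in WT_8C and at 17.2, 4.18 and 12.3 in AKO_8C. For all 3 genes the libraries labelled AKO at 8 °C lay above every library of that genotype at 30 °C, replicate 2 being the lowest of them. In WT_8C it was replicate 2 alone that was high, and the other WT libraries at 8 °C were near or below the level at 30 °C.

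In AKO, Ccl7 rose by 3.76 (SE 0.94, adjusted p = 0.00578), Ccl2 by 2.87 (SE 0.91, adjusted p = 0.0200), Cxcl1 by 2.58 (SE 0.81, adjusted p = 0.0192) and Cxcl2 by 1.24 (SE 0.41, adjusted p = 0.0234, limma). In WT the differences were 1.19 for Ccl7, 0.73 for Ccl2, 0.49 for Cxcl1 and 0.36 for Cxcl2, none of them called. Without WT_8C replicate 2 they were -0.19 for Ccl7, -0.53 for Ccl2, -0.75 for Cxcl1 and 0 for Cxcl2, so the direction in WT rested on that library. The responses were not shown to differ between the genotypes: the difference was 2.57 for Ccl7 (95% interval -0.32 to 5.47, adjusted p = 0.392), 2.13 for Ccl2 (adjusted p = 0.456) and 2.09 for Cxcl1 (adjusted p = 0.417). Without WT_8C replicate 2 it was 3.95 for Ccl7 (adjusted p = 0.0951), 3.398 for Ccl2 (adjusted p = 0.166) and 3.33 for Cxcl1 (adjusted p = 0.0560). Over all 12 fits that left out 1 library it lay between 1.78 and 3.95 for Ccl7, 1.21 and 3.398 for Ccl2, and 1.42 and 3.33 for Cxcl1. For Cxcl2 it lay between 0.53 and 1.45, and none of these was called. Ccl7 kept its call in AKO in all 12 fits that left out 1 library, at 3.21 to 4.44. Without AKO_8C replicate 2, the lowest of its group, the rises in AKO were 4.44 for Ccl7, 3.57 for Ccl2, 3.11 for Cxcl1 and 1.81 for Cxcl2. Ccl2 lost it without AKO_30C replicate 2 or AKO_8C replicate 1 or 3 (2.30 to 2.77, adjusted p between 0.0566 and 0.0788). Cxcl1 lost it without AKO_30C replicate 1 or 2 or AKO_8C replicate 1 or 3 (2.201 to 2.48, adjusted p between 0.0559 and 0.0687). Cxcl2 was listed at 0 in 7 of 12 libraries and was at most at 3.02 FPKM. It was at 0, 0.134 and 0 FPKM in AKO_30C and at 3.02, 0.127 and 2.32 in AKO_8C, which overlap. Its call was lost without AKO_30C replicate 1 or 3 or AKO_8C replicate 1 or 3 (adjusted p between 0.0567 and 0.0995, limma). With no filter on low values the calls of Ccl2, Cxcl1 and Cxcl2 were lost (adjusted p = 0.0878, 0.0848 and 0.0863).

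Ccl2, Ccl7, Ccl11, Ccl12, Ccl8 and Ccl1 form a group on chromosome 11 between 82035571 and 82305690 (GRCm38). Ccl12, a further mouse ligand of Ccr2 in that group, was called higher in the cold in both genotypes. It was at 4.49, 6.05 and 3.64 FPKM in WT_30C, at 7.14, 6.36 and 8.201 in AKO_30C, at 10.5, 29.99 and 9.91 in WT_8C and at 26.9, 10.6 and 22.5 in AKO_8C. No library at 8 °C fell into the range at 30 °C of its genotype. It rose by 1.48 in WT (SE 0.39, adjusted p = 0.00767), by 0.99 without WT_8C replicate 2 (adjusted p = 0.0217), and its rise in AKO was 1.26 (adjusted p = 0.0170, limma). The AKO call was lost without AKO_30C replicate 2 or AKO_8C replicate 1 or 3 (adjusted p between 0.0548 and 0.0691) and with no filter on low values (adjusted p = 0.0740). Ccl2 overlaps Gm17268 on the opposite strand, and reads of that gene could not be told apart from it without strand.

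Ccr1, a receptor of monocytes and neutrophils for several CC ligands, rose by 0.74 in AKO (adjusted p = 0.0205), from 0.57, 0.38 and 1.38 FPKM in AKO_30C to 2.43, 1.22 and 2.17 in AKO_8C, which overlap. The call was lost without AKO_30C replicate 1 or 2 or AKO_8C replicate 1 or 3 (0.58 to 0.68, adjusted p between 0.0626 and 0.0879) and with no filter on low values (adjusted p = 0.0600). In WT the difference of Ccr1 lay between 0.12 and 0.42 over the 12 fits that left out 1 library, called in 0 of them. Cxcr2, the neutrophil receptor of Cxcl1 and Cxcl2, was called in neither genotype, with differences of 0.52 in WT (adjusted p = 0.0605) and 0.45 in AKO.

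Neutrophil markers and cytokines varied over the same libraries. The sum of 9 neutrophil markers was 5.29, 7.56 and 2.61 FPKM in WT_30C, 5.64, 13.8 and 62.2 in AKO_30C, 42.5, 114 and 52.2 in WT_8C and 49.5, 42.7 and 102 in AKO_8C. It was thus high in AKO_30C replicate 3 and WT_8C replicate 1, in which Cxcl1 was at 1.74 and 0.26 FPKM. It was highest in WT_8C replicate 2, with Cxcl1 at 16.8 FPKM. In AKO_8C replicate 2 was the lowest of its group for both, with Cxcl1 at 4.18 FPKM. The sum was mostly S100a8 and S100a9, at 37.2 and 22.7 of a mean of 69.7 FPKM in WT_8C. Il1b, which encodes an inflammatory cytokine that induces these ligands, was at 0.60, 6.19 and 1.38 FPKM in WT_8C and at 3.49, 1.24 and 2.47 in AKO_8C, highest in the library in which Ccl2 and Cxcl1 were highest within WT. Il1b rose by 1.40 in AKO at 8 °C (adjusted p = 0.0163), and Il6, another such cytokine, was below the limit for testing at 0.07, 0.88 and 0.18 FPKM in WT_8C and 2.16, 0.24 and 2.79 in AKO_8C. The part of these markers in the rise of the ligands was not tested.

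**Figure D4:**
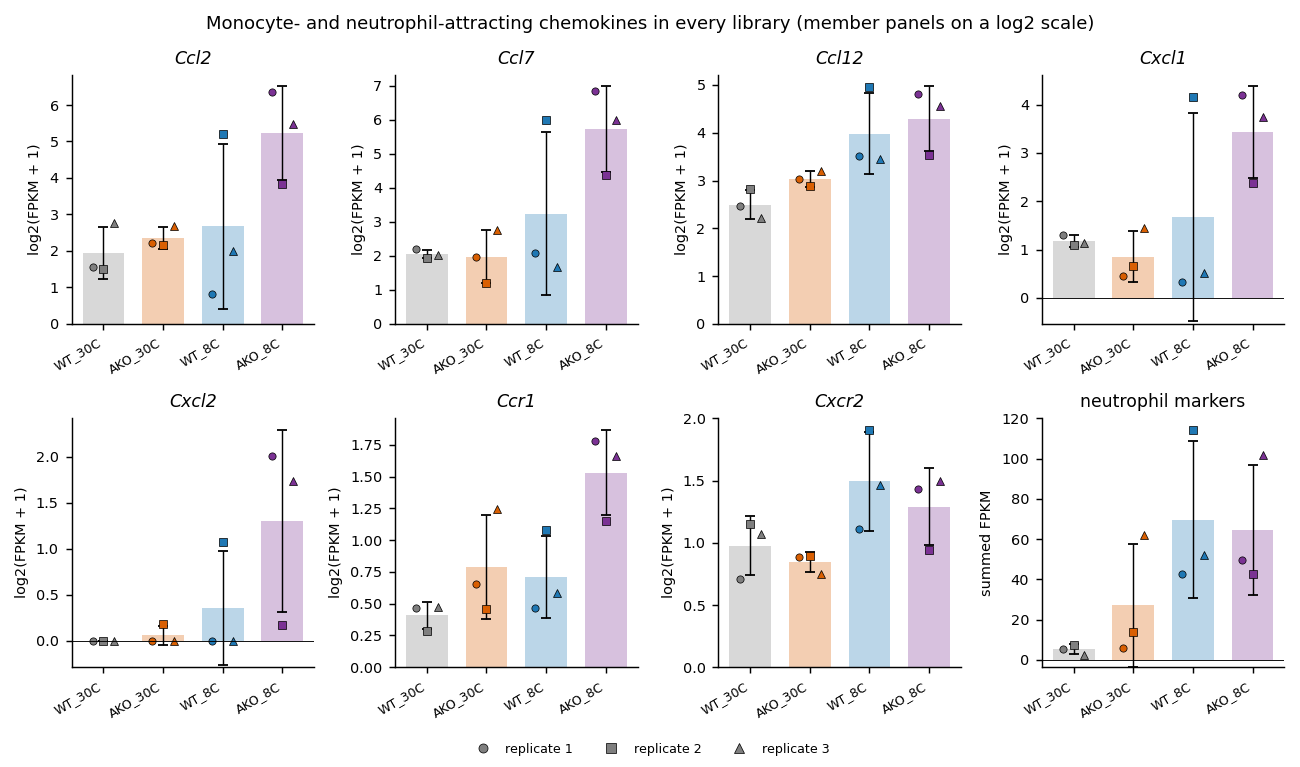
Levels of 7 members as log2(FPKM + 1) and summed FPKM of the neutrophil markers in every library; bars are group means, error bars are SD (n = 3) and symbols are replicates. In WT_8C only replicate 2 is high for Ccl2, Ccl7 and Cxcl1, whereas all 3 libraries of AKO_8C lie above AKO_30C for these genes.

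Between the genotypes at 30 °C, in the comparison that asks how fat of mice labelled AKO differed at rest, 3 macrophage-associated ligands and 1 atypical receptor were higher in AKO_30C. The called members were Ccl6, Ccl8, Ccl9 and Ackr3, which is 4 of 47 (8.51%) where 0.795% of all genes tested were called. None was lower, where 0.0378% of all genes were. At an unadjusted p under 0.05 there were 18 members, 9 higher and 9 lower, where 14.4% of all genes were below it. In 9 members all AKO_30C libraries lay above all WT_30C libraries, where 8.54% of all genes did, and in 8 they lay below, where 10.6% did. The median of the members was -0.09, beside -0.04 over all genes.

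Ccl6, a mouse CC ligand made by macrophages and other myeloid cells, was at 18.3, 17.1 and 10.5 FPKM in WT_30C, at 51.6, 47.9 and 100.4 in AKO_30C, at 27.5, 61.0 and 43.9 in WT_8C and at 82.8, 98.9 and 62.9 in AKO_8C. Ccl9, a further ligand of Ccr1 that lies beside it on chromosome 11, was at 4.56, 4.34 and 4.06 FPKM in WT_30C, at 13.8, 9.64 and 22.5 in AKO_30C, at 6.23, 15.4 and 8.56 in WT_8C and at 20.8, 23.001 and 21.7 in AKO_8C. In both genes the libraries labelled AKO lay above those labelled WT at each temperature, with WT_30C the lowest group. At 30 °C Ccl6 was higher in AKO by 2.01 (SE 0.33, adjusted p = 0.0292) and Ccl9 by 1.54 (SE 0.29, adjusted p = 0.0399, limma). At 8 °C the differences were 0.92 for Ccl6 (adjusted p = 0.152) and 1.13 for Ccl9 (adjusted p = 0.0648). Cold raised Ccl6 in WT by 1.43 (adjusted p = 0.00356) and Ccl9 by 0.97 (adjusted p = 0.0150; 0.64 and adjusted p = 0.0581 without WT_8C replicate 2; adjusted p = 0.0640 with no filter on low values), and neither was called in AKO, where they differed by 0.35 and 0.56. Ccl6 overlaps E230016K23Rik, a transcript of the opposite strand.

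Ccl8, a ligand that attracts monocytes and T cells and in the mouse is made by skin and tissue macrophages, was at 20.4, 23.02 and 25.6 FPKM in WT_30C, at 67.9, 45.2 and 80.5 in AKO_30C, at 87.4, 115 and 188 in WT_8C and at 72.3, 66.4 and 80.4 in AKO_8C. The lowest group was WT_30C and the highest WT_8C, and the libraries labelled AKO overlapped between the temperatures. It was higher in AKO at 30 °C by 1.42 (SE 0.25, adjusted p = 0.0332) and lay 0.76 lower at 8 °C (adjusted p = 0.130, limma), where the groups did not overlap. Cold raised it by 2.38 in WT (SE 0.25, adjusted p = 2.25e-05), while the difference in AKO was 0.21. The group mean of Ccl8 at 8 °C was 565% of that at 30 °C in WT and 113% in AKO. Of 14 macrophage markers, 6 were called higher in the cold in WT and none lower, with their sum at 123% of that at 30 °C. In AKO 3 of these markers were called lower and none higher, with the sum at 67.5%. Their median interaction was -1.28, with 13 of 14 negative and none called, beside 0.07 over all genes, and their part in the response of Ccl8 was not tested. The interaction of Ccl8 was -2.17 (SE 0.35, adjusted p = 0.0444), which made Ccl8 the 1 member called among the 47 where 0.114% of all genes were called, 0.0530% with a negative value. That call held in 2 of 12 fits that left out 1 library, those without WT_8C replicate 1 or 3, and the adjusted p lay between 0.0560 and 0.157 in the other 10, with a log2 value between -2.42 and -1.87 over all 12. It was also lost with no filter on low values (adjusted p = 0.154), a pseudocount of 0.1, median ratio scaling or equal sum scaling (adjusted p between 0.0504 and 0.0584).

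Ackr3, an atypical receptor that scavenges Cxcl12, was at 6.03, 6.12 and 6.88 FPKM in WT_30C, at 18.3, 17.5 and 33.1 in AKO_30C, at 24.1, 62.0 and 26.4 in WT_8C and at 55.0, 78.4 and 56.0 in AKO_8C. Its levels rose with cold in both genotypes and no group overlapped with WT_30C. It was higher in AKO at 30 °C by 1.65 (SE 0.32, adjusted p = 0.0445), and cold raised it by 2.26 in WT (SE 0.32, adjusted p = 0.000156), with a rise of 1.46 in AKO (adjusted p = 0.00250, limma). Both cold calls held in all 12 fits that left out 1 library. The difference between the cold responses was -0.80 (95% interval -1.78 to 0.18, adjusted p = 0.431).

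The genotype calls at 30 °C did not withstand the loss of single libraries. None of the 4 was called without WT_30C replicate 1, 2 or 3 or AKO_30C replicate 1 or 3, where the adjusted p lay between 0.0511 and 0.188, and Ackr3 was also lost without AKO_30C replicate 2 (adjusted p = 0.0596). The log2 values stayed between 1.67 and 2.1999 for Ccl6, 1.24 and 1.65 for Ccl8, 1.24 and 1.81 for Ccl9, and 1.36 and 1.81 for Ackr3. Leaving out libraries at 8 °C, which enter through the shared estimate of the spread, cost Ackr3 its call without WT_8C replicate 3 or AKO_8C replicate 1 or 3 (adjusted p up to 0.0606) and Ccl9 its call without WT_8C replicate 3 or AKO_8C replicate 1 (adjusted p up to 0.0596). With no filter on low values all 4 calls were lost (adjusted p between 0.173 and 0.211), and with median ratio scaling that of Ackr3 was lost (adjusted p = 0.0563). With the replicate number as a block all 4 calls were lost too (adjusted p between 0.0537 and 0.0708, limma).

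Among the members that missed the threshold at 30 °C, Ccl24, an eosinophil-attracting ligand of macrophages, lay at 0.96, 0.79 and 0.54 FPKM in WT_30C and at 2.97, 3.77 and 6.89 in AKO_30C. The groups did not overlap, the difference was 1.60 (SE 0.39, adjusted p = 0.0930), and it was called without WT_8C replicate 2 (adjusted p = 0.0150). Cold raised Ccl24 in WT by 1.31 (adjusted p = 0.0160), to 1.77, 8.71 and 2.08 FPKM, by 0.73 without WT_8C replicate 2 (adjusted p = 0.0310), and the call was lost without WT_30C replicate 3 (adjusted p = 0.0525) and with no filter on low values (adjusted p = 0.0698). In AKO its cold difference lay between 0.31 and 0.81 over the 12 fits that left out 1 library, called in 0 of them. Ackr2, a decoy receptor for inflammatory CC ligands, had 1.07, 1.04 and 0.76 FPKM in WT_30C and 2.41, 1.61 and 4.90 in AKO_30C (log2 0.94, adjusted p = 0.130). The 9 members that lay lower at an unadjusted p under 0.05 were Ccl19, Ccl22, Ccl4, Ccl5, Ccr7, Cxcl16, Cxcl9, Cxcr3 and Cxcr6, with differences from -0.73 for Cxcr3 to -0.33 for Cxcl9 and adjusted p of 0.132 or more.

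Markers of several cell types differed between the genotypes at 30 °C. Of 14 macrophage markers 3 were called higher, all 14 were detected, and their sum ran from 616 to 725 FPKM in WT_30C and from 931 to 1440 in AKO_30C. Of 12 fibroblast and progenitor markers 3 were called higher, and the sum ran from 2238 to 3199 FPKM and from 3737 to 5712. The sum of 8 mast cell markers ran from 7.14 to 12.5 FPKM and from 32.6 to 54.1, with 3 called higher of 5 tested. The T cell sum ran from 802 to 1119 FPKM in WT_30C and from 642 to 741 in AKO_30C, with none of its 13 markers called. In percent of the WT_30C mean, AKO_30C was at 168% for the macrophage sum, and at 436% for Ccl6, 280.5% for Ccl8, 354% for Ccl9 and 362% for Ackr3. The sum was mostly Lyz2, at 427 FPKM in WT_30C and 119% of that in AKO_30C. Taken singly, the 14 macrophage markers lay between 119% and 739% with a median of 243%, among them Mrc1 at 336%, Cd163 at 352%, Folr2 at 549.8% and Lyve1 at 739%, and 12 of 14 were higher without overlap, where 8.54% of all genes were. On the same scale the fibroblast and progenitor sum was at 173% and the mast cell sum at 406%. The neutrophil sum was at 528%, with AKO_30C replicate 3 the highest of its group. The T cell sum was at 71.7% and the B cell sum at 80.65%, and the other marker sums lay between 69.1% and 174%. The members named above as lower lay between 57.5% for Cxcr3 and 77.3% for Cxcl9. The part of these markers in the differences of the members was not tested.

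**Figure D5:**
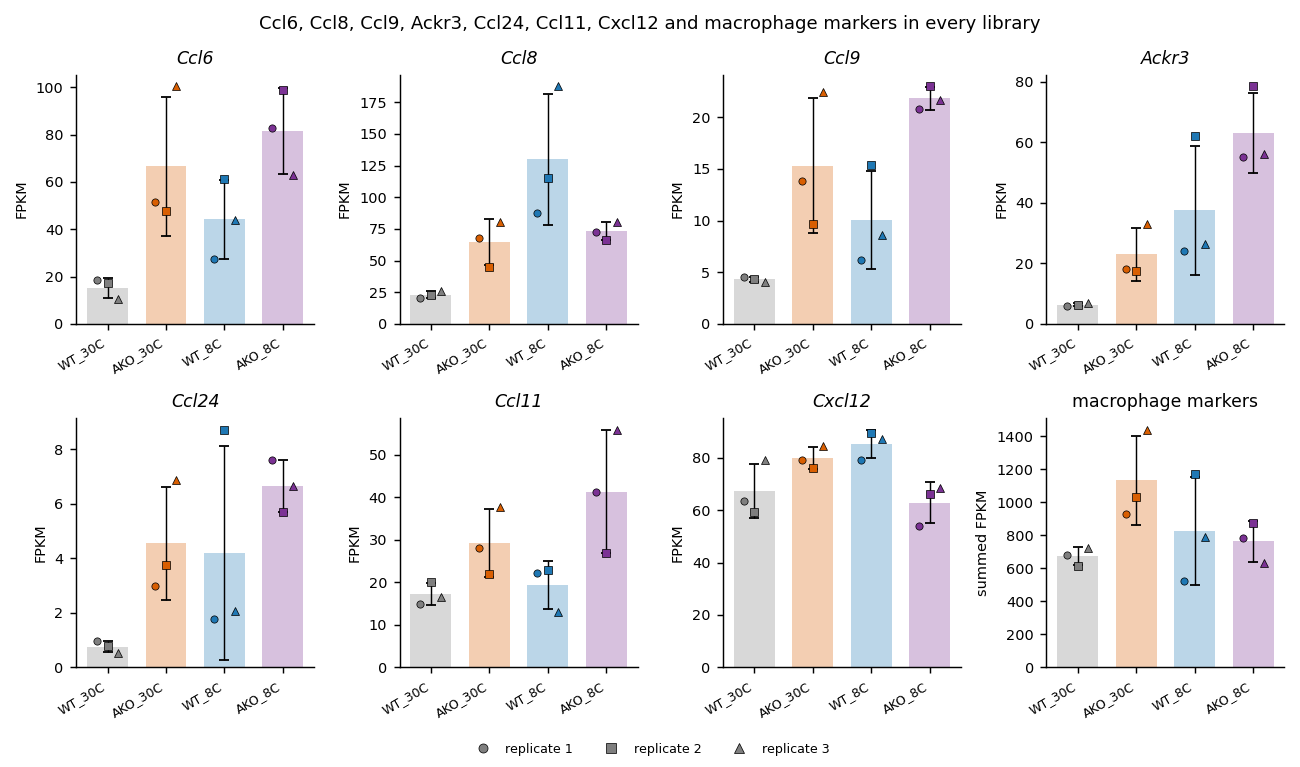
Levels in FPKM of 7 members and the summed FPKM of the macrophage markers in every library; bars are group means, error bars are SD (n = 3) and symbols are replicates. WT_30C is the lowest group for Ccl6, Ccl8, Ccl9, Ackr3 and Ccl24, Ccl8 is highest in WT_8C, and Cxcl12 is lowest in AKO_8C.

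Between the genotypes at 8 °C no member passed the test, where 2.03% of all genes did, and 14 of 47 had an unadjusted p under 0.05 (limma), beside 19.4% of all genes. All AKO_8C libraries lay above all WT_8C libraries in 5 members and below them in 5, where 15.2% and 8.91% of all genes did so. The members higher without overlap were Ccl4, Ccl6, Ccl9, Ccl11 and Ccr1. Ccl11, the eosinophil ligand eotaxin, was at 22.2, 22.9 and 12.9 FPKM in WT_8C and at 41.2, 27.0 and 55.9 in AKO_8C, a difference of 1.04 (SE 0.27, adjusted p = 0.0717). It was called without AKO_8C replicate 2 (1.31, adjusted p = 0.0429). Cxcl12 lay 0.44 lower in AKO_8C (adjusted p = 0.0807).

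Leaving out WT_8C replicate 2 changed this comparison most. Without it 6 members were called, all higher in AKO_8C: Ccl7 by 3.86 (adjusted p = 0.0110), Ccl2 by 3.81 (adjusted p = 0.0173), Cxcl1 by 3.01 (adjusted p = 0.00997), Ccl9 by 1.46, Ccl24 by 1.38 and Ackr3 by 1.27 (limma). With it the differences were 2.48 for Ccl7, 2.55 for Ccl2 and 1.77 for Cxcl1, with adjusted p between 0.151 and 0.256. Those of Ccl9, Ccl24 and Ackr3 with it were 1.13, 0.80 and 0.85 (adjusted p = 0.0648, 0.289 and 0.169, limma). The remaining 2 libraries of WT_8C are then assumed to vary like the other groups. The share of all genes called without that library is not given here, so these 6 calls cannot be set against a background. Cxcl2 was called without AKO_8C replicate 2 (1.51, adjusted p = 0.0335), and Ccl9 without AKO_30C replicate 3 (adjusted p = 0.0421).

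The authors' deposited tables, which list genes by their own test of AKO over WT, hold 10 members at 30 °C, all marked significant, and 17 at 8 °C, of which 15 are marked significant. The members listed make up 1.14% of the rows at 30 °C and 1.58% at 8 °C. Most rows of both lists are marked significant, 746 at 30 °C and 916 at 8 °C, so that mark is not particular to the members. In the authors' deposited table for 8 °C the log2 fold change, without a pseudocount, is 1.80 for Ccl2, 1.51 for Ccl7 and 0.95 for Cxcl1, with q-values of 0.000301, 0.000301 and 0.00983. Of those 15 members, 11 are higher and 4 lower in the authors' deposited table, the latter being Xcr1 at -0.88, Ccl8 at -0.83, Ccr2 at -0.77 and Ccr6 at -0.67. In the authors' deposited table for 30 °C it is 2.58 for Ccl24, 2.12 for Ccl6 and 1.23 for Ccr1, and -0.80 for Cxcr3, the 1 member listed as lower.

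Of 9 chemokine-like genes outside the naming rule, 7 were tested. Pf4, which encodes the CXC ligand platelet factor 4, was at 18.9, 18.4 and 16.1 FPKM in WT_30C and at 57.9, 59.8 and 77.0 in AKO_30C. The groups were far apart relative to their spread, with a difference of 1.80 (adjusted p = 0.0292, limma), and cold raised it in WT by 1.06 (adjusted p = 0.00370). Cmklr1, the chemerin receptor, rose by 0.71 in WT and fell by 0.90 in AKO in the cold (adjusted p = 0.0150 and 0.00364), and the difference between these responses was -1.61 (adjusted p = 0.0811) and not called. Of 24 genes that act below chemokine receptors, 18 fell and none rose at 8 °C in WT, and 19 fell and 1 rose in AKO, where 24.7% and 23.1% of all genes fell. Among them Coro1a, an actin regulator of lymphocyte migration, fell from 632 to 305 FPKM in WT and from 491 to 230.0 in AKO as group means. The gene that rose was Rgs2, a regulator of G protein signalling, by 1.46 (adjusted p = 0.0337). Of 16 tested genes that induce chemokines, 10 fell and none rose in WT, and 6 fell and 1, Il1b, rose in AKO. The share called was thus 62.5% in WT and 43.8% in AKO, beside 49.0% and 49.5% of all genes. Those called lower were 62.5% in WT and 37.5% in AKO, beside 24.7% and 23.1% of all genes. Ltb, the lymphotoxin subunit that maintains lymph node stroma, fell by 1.30 in WT and 1.46 in AKO (adjusted p = 6.6e-05 and 1.8e-05). These lists hold many genes of lymphocytes, whose markers fell in the same libraries as described above.

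Some ligands below the limit for testing were read in few libraries. Cxcl15 and Cxcl17, both ligands of mucosal or glandular epithelium, reached 0.79 and 0.62 FPKM in WT_8C replicate 1 and at most 0.10 FPKM in any other library. In that library the sum of 10 mammary epithelium markers was 73.7 FPKM, beside 2.26 to 6.35 in the other 11. The part of that tissue in the level of these ligands was not tested. Cxcl5, a further ligand of Cxcr2, was above 0 only in AKO_8C replicates 1 and 3, at 0.10 and 0.41 FPKM, and Cxcl3 was above 0 in all 6 libraries at 8 °C and in none at 30 °C, at 0.07 to 0.31 FPKM. Neither was tested. The ligands of Cxcr3, Cxcl9 and Cxcl10, were called in no comparison over all 12 libraries: Cxcl10 was between 3.42 and 14.8 FPKM and Cxcl9 between 7.92 and 15.7 FPKM. Cxcl10 was at 4.90, 3.93 and 6.755 FPKM in AKO_30C and at 9.37, 13.5 and 9.74 in AKO_8C (0.95, adjusted p = 0.0828, limma). That rise was called without WT_30C replicate 3 or WT_8C replicate 2 (adjusted p = 0.0385 and 0.0395). Cxcl9 was called lower in the cold in WT without WT_30C replicate 2 (-0.46, adjusted p = 0.0165).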

How the data were processed

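Libraries were grouped by the labels' genotype and temperature, 3 mice each. Per the submitters' processing notes, bcl2fastq, FastQC 0.11.3, TopHat2 2.0.14 and Cufflinks 2.2.1 were used with build mm10. Annotation, strand and options are not given in the sources used here. The deposited gene table is named a count but holds FPKM made by the authors, since averaging its columns within a group returns the group values of their comparison tables. Per the file headers, the latter also hold the authors' log2 fold change, a score (the test statistic), p-value and q-value. Depth is unknown, so no counting error is given.

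Values were taken as log2(FPKM + 1). The 13215 genes that reached 1 FPKM in at least 3 of 12 libraries were tested with limma (version 3.58.1, R 4.3.3), using 1 mean per group, a variance trend, two-sided tests and Benjamini-Hochberg adjustment over all of them at 0.05. A further 2 rows were left out because they held both zeros and values of 1000 FPKM or more. The interaction subtracts the genotype difference at 30 °C from that at 8 °C. The script was tested on simulated data. Positions are from GENCODE on GRCm38 and promoters from RefSeq (GRCm38.p6), where 46 of 62 members matched by symbol. Figures used Python 3.11.15 and matplotlib 3.10.9. Any member of the family could be named, with values for each one called, as could genes of the described lists. The members, gene lists and marker lists were chosen with earlier results of these data known. Alternatives were no filter, a filter at 5 FPKM, a pseudocount of 0.1, 3 scalings (median ratio, upper quartile, equal sum), the compared groups alone, a replicate block and each library left out. Of the 47 members tested, 1 is counted with the family but its values are not reported here.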

Additional observations from a re-analysis of the deposited data

Results flagged for a closer look

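Ccl8 was looked at again because its genotype difference changed between the temperatures by a test of that difference. The AKO over WT difference was 1.42 at 30 °C and -0.76 at 8 °C on the log2 scale, and the interaction was -2.17 (adjusted p = 0.0444, limma). The call held in 2 of 12 fits that left out 1 library.

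Cxcl12 was looked at again because all WT libraries were higher at 8 °C than at 30 °C and all libraries labelled AKO were lower. The difference between these responses was -0.69, and its test gave an adjusted p of 0.146 (limma), so the responses were not shown to differ.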

How the results depend on the processing

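The count of members called between the genotypes at 30 °C was 4, and it was 0 with no filter on low values, 0 with the replicate block, and between 0 and 5 when 1 library was left out. At 8 °C it was 0, with 1 under the block and between 0 and 6 when 1 library was left out. The cold response gave 22 calls in WT and 24 in AKO, with 18 to 23 and 16 to 26 when 1 library was left out, and stayed within 1.5 times under the other 8 alternatives. The interaction gave 1 call, and 0 with no filter, a pseudocount of 0.1, median ratio scaling or equal sum scaling, with 0 to 1 when 1 library was left out. The deviations of same-numbered libraries correlated between -0.11 and 0.20 over 18 pairs, and those of differently numbered libraries between -0.26 and 0.17 over 36 pairs. These ranges overlap and cannot decide whether equal numbers mark paired samples. The block also took the calls of Cx3cr1 in WT and Ccr6 in AKO (adjusted p = 0.0575 and 0.0501, limma). Over the calls of single members, no alternative turned a direction; no filter took 18 of 51 calls and left 33. Equal sum scaling moved the median of all genes in the cold by -0.13 in WT and -0.22 in AKO, and upper quartile scaling by -0.11 in AKO. For calls lost under these settings the cause was not tested. With no counts deposited in the files used, depth cannot be given, and members near 1 FPKM are the least precise.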
